A study of Brassica rapa with 6 samples.

Results

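The loci described here are 126 unannotated loci of the *Brassica rapa* genome that lie antisense to a named gene. Each carried no gene name in the deposited expression table, had an assigned strand, and overlapped by at least 1 base a locus with a gene name on the opposite strand of the same chromosome, its sense partner. They were chosen by position and annotation alone, from 49200 loci in all, of which 2843 had no gene name and 1612 of those had a strand. The plants were an inbred line of baby Chinese cabbage, a small heading type of *B. rapa*, untreated and harvested at maturity, and RNA came from leaf (3 libraries) and petiole, the leaf stalk (3 libraries). After ribosomal RNA depletion the libraries were made strand-specific, per the labels' protocols. The labels number the libraries within a tissue and do not say whether they are different plants, so the spread behind every p-value here could be technical.

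Natural antisense transcripts are RNAs made from the strand opposite a gene. In plants some of them are known to alter the chromatin or the transcription of the gene they face, and others pair with its messenger RNA to give small interfering RNAs. The antisense RNA at *FLOWERING LOCUS C*, a repressor of flowering in *Arabidopsis thaliana*, is the best studied case. Strand-specific libraries are needed to tell such transcripts from the gene itself, and a transcript that is assigned to the wrong strand looks like an antisense locus.

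The tissue labels were checked against marker genes. The summed FPKM (sequenced fragments relative to the length of the transcript and the size of the library) of 30 leaf blade loci was 4006 to 4141 in leaf and 432 to 473 in petiole, and that of 26 loci of the LSH and NPR5/NPR6 families, which act at organ boundaries and in leaf stalks, was 17.0 to 19.0 in leaf and 177 to 183 in petiole. Genes for phloem protein 2, a protein of the sieve tubes, summed to 66.6 to 72.7 FPKM in leaf and 65.8 to 71.0 in petiole over 26 loci, of which 8 were at 0 throughout. Libraries held 111518411 to 132861243 count units, at about 3.78 units a sequenced fragment. The antisense loci took 1.57% to 1.68% of the units in leaf and 2.15% to 2.92% in petiole. These totals rest on a few loci: the 4 most abundant in leaf held 51.2% to 74.1% of them in leaf and 66.6%, 64.3% and 21.8% in petiole, where MSTRG.4288 was at 0 in petiole 3. Deposited FPKM ran 1.67-fold higher in petiole than in leaf relative to scaled counts, as the median over 27719 loci. The FPKM sums above carry this shift, so near-equal sums for phloem protein 2 are not equal scaled counts. Levels of different loci are therefore compared as FPKM within a library, and tissues are compared as CPM, counts scaled to library size.

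The antisense loci were mostly short, single-transcript regions inside their partner. Their median span was 1233 bases (232 to 82346), against 1526 for all loci, and 106 of the 126 had 1 transcript. Of the 126, 58 lay on the plus and 68 on the minus strand, spread over all 10 chromosomes from 6 on A10 to 27 on A09. The whole locus lay inside the partner in 82 cases, the 3′ ends of both overlapped in 23, the 5′ ends overlapped in 13, and 8 contained the partner. Those inside were spread along it, with 24 centred in the first, 30 in the middle and 28 in the last part when the partner was divided into equal parts from its 5′ end. The median overlap was 947.5 bases.

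Members share partners and not every partner is a gene model. The 126 loci had 106 different main partners, taken as the one with the longest overlap, and 32 of the loci shared 12 of them. In 44 cases the partner held no annotated transcript and so bore a gene's name without its model. In 39 cases the partner merged several gene names, and 25 loci faced a partner at least 100000 bases wide. Of the antisense loci, 12 also overlapped a named locus on their own strand. A span includes introns and any gap between merged genes, so an overlap of spans need not be an overlap of exons. Exon positions were not analysed here.

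Antisense loci were expressed below their partners in most pairs. Their mean FPKM over the 6 libraries had a median of 2.32 (quartiles 0.724 and 7.64), against 5.69 for the partners and 0.904 for all loci. Among loci with enough counts to be tested between tissues, the order turned, with medians of 2.81 for antisense loci and 3.81 for all loci. Of the 126, 85 reached 1 FPKM, 24 reached 10 FPKM and 3 were at 0 in every library. In 69 pairs the antisense locus was below its partner in all 6 libraries, and in 26 it was above in all 6. As a percentage of the partner's FPKM the median was 37.6% over the 125 pairs whose partner was above 0. By position this was 35.6% for loci inside the partner, 14.2% where 3′ ends overlapped, 119.5% where 5′ ends overlapped and 143% where the antisense locus contained the partner.

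**Figure D1:**
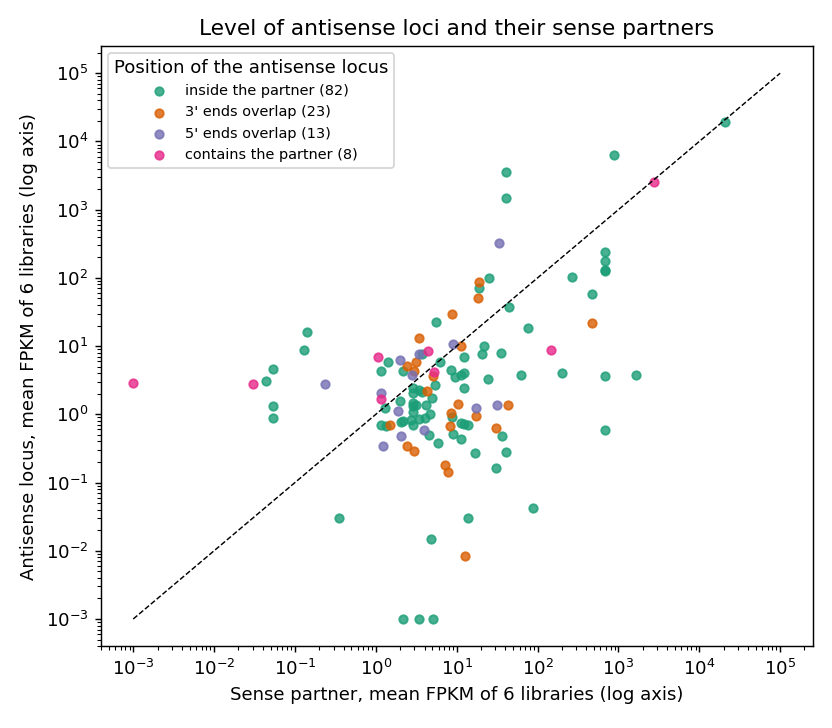
Mean FPKM over the 6 libraries of each antisense locus (vertical, log axis) against its sense partner (horizontal, log axis), coloured by position, with values under 0.001 drawn at 0.001 and a dashed line at equality. Most points lie under the line, and the antisense locus was below its partner in all 6 libraries in 69 of 126 pairs.

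Some pairs held the same counts on both strands or moved between strands from library to library, and these were looked for after such values had been seen. Among 97 pairs with at least 100 units on both strands in some library, 8 (8.25%) had counts within 1% of each other in at least 1 library, against 25 of 1384 pairs of named loci (1.81%). Of 10 antisense pairs whose spans overlapped by at least 80% of each locus, 6 were among these. Of 39 pairs of named loci with such an overlap, 2 had counts that close. MSTRG.17317 and its partner MSTRG.17316 span the same bases of chromosome A06 (19276198 to 19277009). The antisense locus had 50.8, 0 and 48.2 CPM in leaf and 45.3, 40.9 and 40.2 in petiole, and the partner had 50.8, 59.6 and 48.3 in leaf and 45.4, 40.9 and 40.3 in petiole. The values were equal to within 1% in 5 libraries, and in leaf 2 the antisense locus was at 0.

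The second form was a count that changed strand while the sum of both strands stayed steady. MSTRG.23230 (A08, 17953049 to 17953303, minus strand) lies at the end of MSTRG.23229, named for U-box domain-containing protein 45, of a family of ubiquitin ligases. The antisense locus was at 0 in all leaf libraries and at 4782, 160.0 and 5082 CPM in petiole. The partner was at 6923, 6641 and 7266 CPM in leaf and 25.3, 4662 and 24.3 in petiole. The sum of the pair was 6641 to 7266 CPM in leaf and 4808 to 5106 in petiole, so petiole 2 differed from the other petiole libraries in strand and not in the sum. The antisense locus did not pass the edgeR test (adjusted p = 0.0528), although its ratio to the partner passed the ratio test described further on (limma adjusted p = 0.00661, and 2.94e-07 to 0.0403 over its alternatives). With 0 counts in leaf the size of that ratio change is set by the units added, and none is given. MSTRG.29062 showed the same within petiole, at 11.5, 0.253 and 12.1 CPM, while its partner MSTRG.29063 was at 0.596, 12.2 and 0.0972.

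In all, 23 antisense loci were at 0 in some library of a tissue and above 0 in another library of that tissue. Among loci with a median of at least 100 units where present, this held for 9 of 91 antisense loci (9.89%) and for 796 of 25574 of all loci (3.11%). Whether reads were counted by strand is not given in the sources used here. What sets the strand of such counts was not tested.

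**Figure D2:**
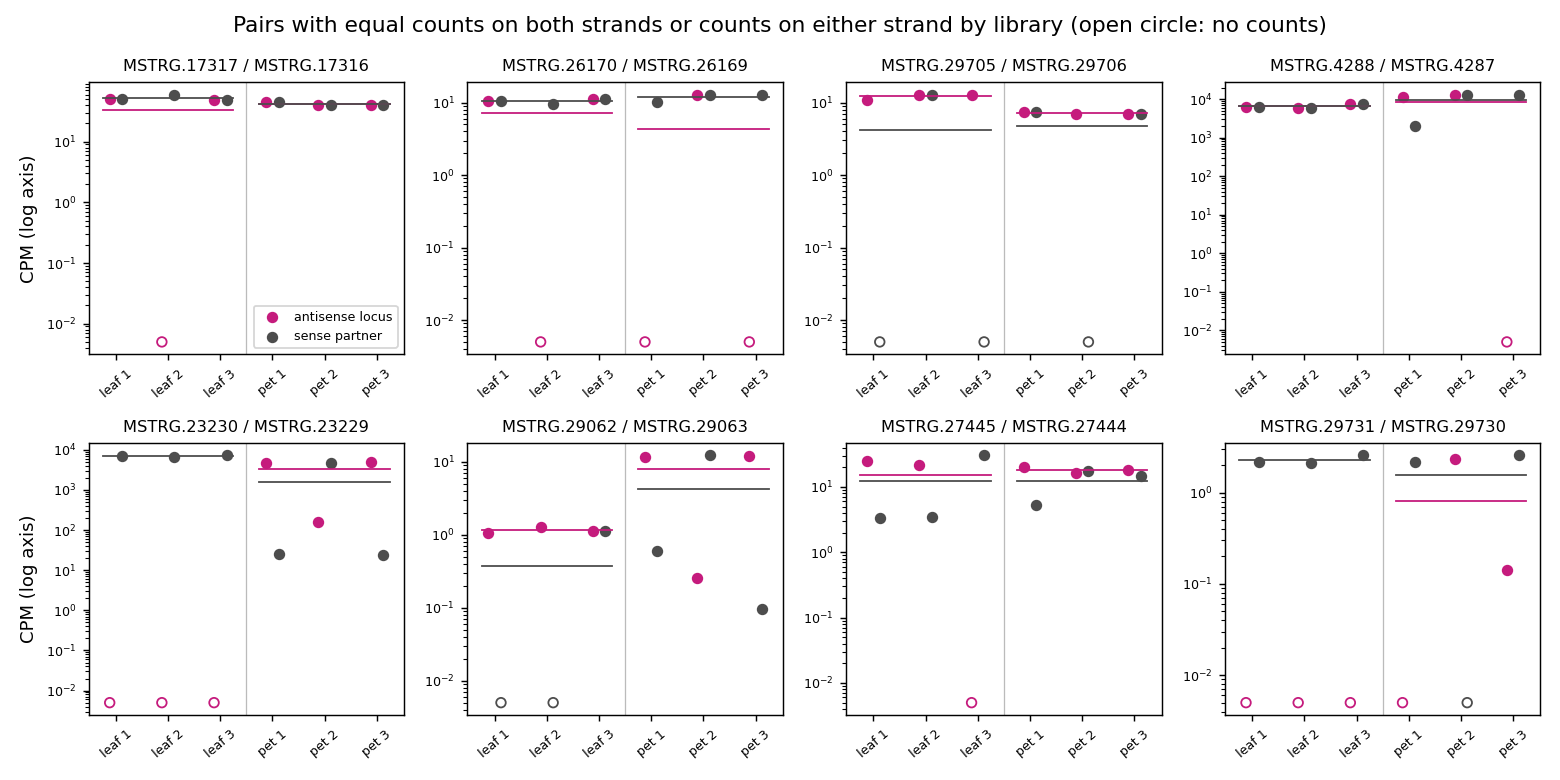
CPM (log axis) of 8 antisense loci and their partners in each library, with horizontal lines at tissue means and open circles, drawn at 0.005, for no counts. In the MSTRG.17317 pair both strands coincide except in leaf 2, and in the MSTRG.23230 pair the antisense locus and the partner exchange levels between petiole 2 and the other petiole libraries.

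Between tissues, a smaller share of antisense loci than of all loci passed the test, and those that did were mostly higher in leaf. The edgeR quasi-likelihood test was run over all loci with Benjamini-Hochberg adjustment and a threshold of 0.05. It tested 116 of the 126 antisense loci and called 51 (44.0%), against 62.6% of all 31473 loci tested. Of these 39 were higher in leaf (33.6% of those tested, against 31.1% of all loci) and 12 were higher in petiole (10.3%, against 31.5% of all loci). CPM of the tissues did not overlap for 61 of the 116 (52.6%), against 71.3% of all loci. The median log2 fold change, petiole over leaf, was -0.26 for the antisense loci and 0.01 for all loci.

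The antisense loci were also measured less precisely, with a median standard error of 0.328 on the log2 scale against 0.172 for all loci, and with a median of 2.81 FPKM against 3.81. The direction depends on the scaling. With limma on log2(FPKM + 1), where the median of all loci was 0.47, 43 antisense loci were called higher in petiole and 20 were called higher in leaf. Of these calls 68.3% were toward petiole, against 78.4% for all loci, while on counts 23.5% were, against 50.3% for all loci. Other loci without a gene name but with a strand were called higher in petiole in 25.6% and higher in leaf in 32.0% of 1427 tested, and named loci without an annotated transcript in 17.9% and 22.7% of 1342. Of the calls in these sets, 73.4% and 70.8% were toward petiole with limma on log2(FPKM + 1), and 44.5% and 44.1% on counts. For loci with neither gene name nor strand these shares were 66.4% and 46.2%. No test of the difference between these sets was made.

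**Figure D3:**
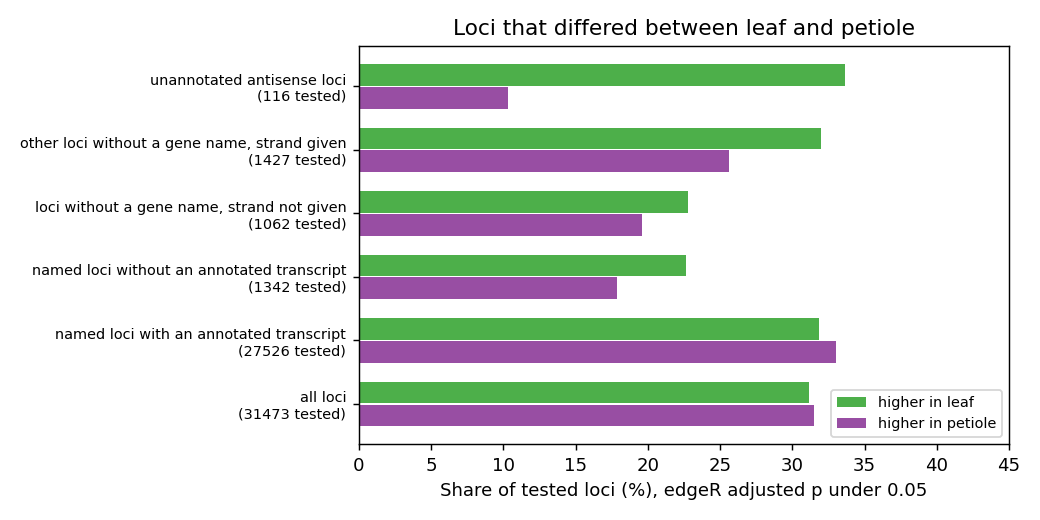
Share of tested loci (horizontal, percent) called higher in leaf or in petiole by edgeR, for the antisense loci and other sets of loci. The antisense loci show 33.6% higher in leaf and 10.3% higher in petiole, and all loci show 31.1% and 31.5%.

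Among the antisense loci higher in leaf was a group opposite merged loci on A06 that carry names of chloroplast proteins. MSTRG.17036 (15079018 to 15557098) is described as photosystem II CP43, a core antenna protein, and MSTRG.17038 (15081372 to 15619492) as the ATP synthase CF0 C subunit, which forms the rotor ring of the chloroplast enzyme. Both genes are normally encoded in the plastid genome. The 2 partners took 23.2%, 23.1% and 16.4% of all units in leaf and 3.78%, 3.80% and 3.68% in petiole. Of 8 antisense loci facing them 7 were tested, and 6 were higher in leaf, against 31.1% of all loci tested.

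MSTRG.17065 (15614546 to 15616147, minus strand) was at 863, 876 and 794 CPM in leaf and at 72.5, 83.6 and 76.4 in petiole. Every leaf library was above every petiole library (log2 fold change -3.45 ± 0.063 SE, edgeR adjusted p = 3.65e-11). The partner MSTRG.17038 fell with it, at -2.75 ± 0.128 (adjusted p = 5.89e-05). The other called loci of the group had log2 fold changes of -3.50 (MSTRG.17035), -3.05 (MSTRG.17037), -3.02 (MSTRG.17064), -2.81 (MSTRG.17066) and -2.22 (MSTRG.17060). In FPKM, the antisense loci of the group were at 3.01% to 50.8% of the partner. Within the group the ratio to the partner passed its test for MSTRG.17065 (-0.70, limma adjusted p = 0.00399) and MSTRG.17060 (0.53, adjusted p = 0.00442), in opposite directions. These loci share 2 partners and are not independent. Without the group, 45 of 109 antisense loci tested were called, against 62.6% of all loci, and 33 of the 45 were higher in leaf.

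MSTRG.6399 (A03, 1921726 to 1924023, minus strand) was lower in petiole while its partner was slightly higher there. It lies inside MSTRG.6335, a merged locus of 407496 bases with the names of potassium transporter 7 and of NADP-dependent malic enzyme 2, which releases carbon dioxide from malate. The antisense locus was at 21.4, 22 and 19.4 CPM in leaf and at 1.21, 0.781 and 0.838 in petiole. The tissues were far apart relative to the libraries of each (log2 fold change -4.47 ± 0.175 SE, edgeR adjusted p = 5.1e-09). The partner was at 1048, 1098 and 1084 CPM in leaf and at 1252, 1269 and 1250.3 in petiole, a log2 fold change of 0.22 ± 0.0337 (adjusted p = 0.00019). Because the partner spans several genes, the gene that lies opposite MSTRG.6399 was not determined.

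MSTRG.10325 (A03, 35475312 to 35487691, minus strand) overlaps the 3′ end of MSTRG.10324, a locus with no description. It was at 26.3, 25.4 and 25.1 CPM in leaf and at 1.77, 1.26 and 1.51 in petiole, with no overlap (log2 fold change -4.08 ± 0.136 SE, edgeR adjusted p = 1.59e-09). The partner also fell, by 2.95 (adjusted p = 6.84e-06), and the ratio still differed (-1.13, limma adjusted p = 0.00022). MSTRG.16152 (A06, 5531737 to 5532723), inside the locus of PHO1 homolog 3, of a family of phosphate exporters, was at 0.235, 0.97 and 0.262 CPM in leaf and at 0 in petiole. That is at least 5.79-fold higher in leaf, against a floor of 3 fragments per library (edgeR adjusted p = 0.00169). Its level in leaf rests on few fragments, and leaf 2 held most of them, so that the bound is 2.94-fold without leaf 2. With counts divided by 3.78 units a fragment, MSTRG.16152 did not pass the filter and was not tested. MSTRG.1021, opposite a cysteine-rich receptor-like kinase, a family of membrane receptors, was named for its partner list after its values were seen. It fell from 9.00 ± 1.03 to 3.71 ± 0.703 CPM (SD, n = 3 each, log2 fold change -1.28, edgeR adjusted p = 7.86e-05), and its partner also fell (-0.48, adjusted p = 4.04e-05).

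Among the 12 antisense loci higher in petiole, MSTRG.204 had the largest change for a locus with counts in every library. It lies on A01 (1299347 to 1301350, plus strand) and overlaps by 533 bases the 3′ end of MSTRG.205, described as a calmodulin-lysine N-methyltransferase, an enzyme that methylates the calcium sensor calmodulin. MSTRG.204 was at 1.53, 1.03 and 1.49 CPM in leaf and at 89.8, 79.2 and 90.9 in petiole. All petiole libraries were above all leaf libraries (log2 fold change 6.01 ± 0.151 SE, edgeR adjusted p = 4.57e-09). Its partner was at 20.2, 23.4 and 18.7 CPM in leaf and at 15.5, 29.6 and 19.6 in petiole, where the groups overlap (0.06 ± 0.243, adjusted p = 0.86). MSTRG.204 was at 5.77% to 10.5% of the partner's FPKM in leaf and at 353% to 763% in petiole.

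MSTRG.25486 (A09, 11607085 to 11608770, plus strand) behaved alike, at 0.991, 1.61 and 1.26 CPM in leaf and 52.4, 55.2 and 56.1 in petiole. The groups were apart (log2 fold change 5.40 ± 0.155 SE, edgeR adjusted p = 2.16e-09). Its partner MSTRG.25484, which has no description and no annotated transcript, had counts in petiole 1 alone (1.31 CPM) and was not tested.

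MSTRG.22458 (A08, 11222293 to 11224437, minus strand) lies inside the locus of LIGHT-DEPENDENT SHORT HYPOCOTYLS 9 (BraA08g013030.3C), an LSH gene of the plant-specific ALOG family of nuclear proteins. This pair was low on both strands. The antisense locus was at 0, 0.0373 and 0 CPM in leaf and at 0.437, 0.458 and 1.04 in petiole, and passed the test (log2 fold change 5.56 ± 1.30 SE, edgeR adjusted p = 0.00362). The LSH9 locus was at 0.0196, 0 and 0.165 CPM in leaf and at 2.38, 3.03 and 2.14 in petiole (5.34 ± 0.940, adjusted p = 0.00148). With leaf nearly empty the size of either change is uncertain: MSTRG.22458 went to 9.35 without leaf 2 and the LSH9 locus (MSTRG.22456) to 7.90 without leaf 3. Both were higher in every petiole library, and the ratio between them did not pass its test (-0.64 ± 2.12, limma adjusted p = 0.824).

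MSTRG.5645 (A02, 27891174 to 27892528, minus strand) had no counts in leaf and was at 1.48, 1.12 and 1.11 CPM in petiole. Against the floor per library that is at least 10.7-fold higher (edgeR adjusted p = 3.17e-05). Its partner MSTRG.5643 was at 1.21, 0.681 and 1.97 CPM in leaf and at 0.609, 0.141 and 0.0299 in petiole and did not pass the test (adjusted p = 0.0574, and 0.00324 to 0.168 over its alternatives). Of the other loci named by the rule, MSTRG.5697 rose by 3.72 and its partner MSTRG.5698 by 2.86, and MSTRG.8331 rose by 2.5 and its partner MSTRG.8332 by 1.05 (log2, edgeR adjusted p = 0.00679, 4.85e-06, 0.00346 and 0.000293). The smallest changes were those of MSTRG.17765 (0.80, adjusted p = 0.0352) and MSTRG.2036 (0.77, adjusted p = 0.00116). The call of MSTRG.17765 was lost without leaf 3, petiole 1 or petiole 2, with adjusted p from 0.000108 to 0.129 over its alternatives.

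**Figure D4:**
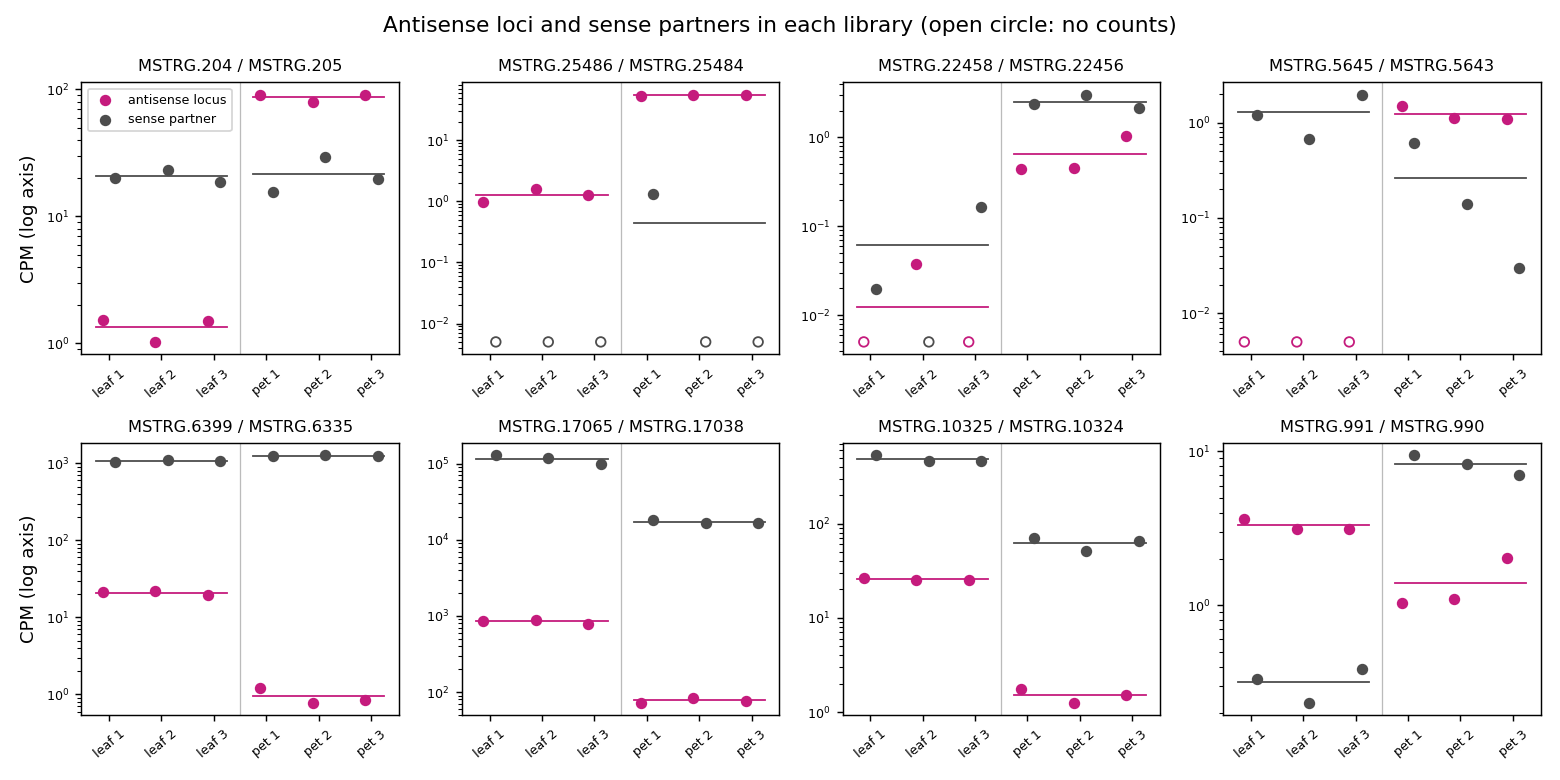
CPM (log axis) of 8 antisense loci and their partners in each library, with horizontal lines at tissue means and open circles, drawn at 0.005, for no counts. MSTRG.204 rises from 1.03 to 1.53 CPM in leaf to 79.2 to 90.9 in petiole while its partner stays between 15.5 and 29.6, and MSTRG.6399 falls from 19.4 to 22 CPM in leaf to 0.781 to 1.21 in petiole.

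To ask whether an antisense locus changed relative to its partner, the log2 ratio of their counts within each library was compared between tissues with limma, over all 1647 opposite-strand pairs with both loci tested. Of 106 antisense pairs 35 were called (33.0%), against 51.6% of all pairs and 52.9% of pairs of 2 named loci. The antisense share was higher in leaf in 27 and in petiole in 8, and the median difference was -0.28. For 498 named pairs in which 1 locus lacked an annotated transcript, the ratio of that locus to the other was called toward leaf in 125 and toward petiole in 56, with a median of -0.14.

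The directions of antisense loci and their partners were then set side by side. Both were called in the same direction in 26 of 106 pairs (24.5%), 19 toward leaf and 7 toward petiole, and in opposite directions in 10 (9.43%). In the remaining pairs the antisense locus alone was called in 11, the partner alone in 32 and neither in 27. Pairs of named loci were called in the same direction in 31.2% and in opposite directions in 19.6% of 1541. Whatever the call, fold changes had the same sign in 59.4% of the antisense pairs and in 60% of the named pairs, so agreement in sign was at the level of opposite-strand pairs in general. Across the 106 antisense pairs the fold changes had a Spearman correlation of 0.42 and a Pearson correlation of 0.17, and across the 1541 named pairs these were 0.30 and 0.31. The antisense pairs were thus above the named pairs by rank and below them by Pearson correlation. Both are given as a description, since the loci of a pair come from the same libraries and some pairs share a partner.

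**Figure D5:**
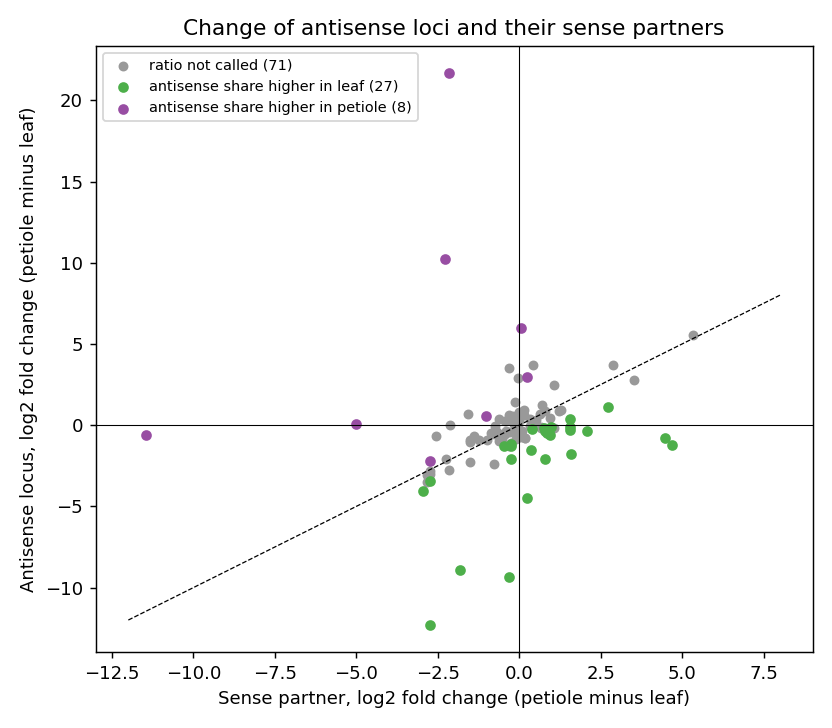
Log2 fold change, petiole over leaf, of each antisense locus (vertical) against its sense partner (horizontal) for 106 pairs, coloured by the call of the ratio test, with a dashed line at equality. The 27 pairs with a higher antisense share in leaf lie under the line and the 8 with a higher share in petiole above it.

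In all 10 pairs called in opposite directions the antisense locus was higher in leaf and the partner higher in petiole. The largest ratio change was that of MSTRG.991 (A01, 6897003 to 6899018, plus strand), which overlaps the 5′ end of MSTRG.990, a locus without an annotated transcript. The antisense locus was at 3.66, 3.13 and 3.12 CPM in leaf and at 1.04, 1.09 and 2.04 in petiole (log2 fold change -1.25 ± 0.295 SE, edgeR adjusted p = 0.00381). The partner was at 0.334, 0.233 and 0.388 CPM in leaf and at 9.41, 8.31 and 7.02 in petiole (4.69 ± 0.243, adjusted p = 4.63e-08). The ratio moved by -6.01 ± 0.427 (limma adjusted p = 3.63e-05).

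MSTRG.18777 (A07, 852323 to 853945) and its partner MSTRG.18774 changed by -0.81 and 4.49, with a ratio change of -5.87 (limma adjusted p = 0.00248). The partner had few counts in leaf, and without leaf 2 its change went to 6.13 and the ratio change to -6.90, while without leaf 3 the ratio change was -5.04. The sum of the pair was 4.51 to 5.39 CPM in leaf and 4.001 to 4.48 in petiole. With limma on log2(FPKM + 1) neither MSTRG.18777 (-0.06) nor MSTRG.991 (-0.28) was called.

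MSTRG.19503 (A07, 13390460 to 13391340, minus strand) lies inside a locus described as UDP-glycosyltransferase 85A1-like, of a family that in *Arabidopsis* attaches glucose to the hormone zeatin. It was at 12.4, 12.6 and 17.2 CPM in leaf and at 3.66, 6.56 and 1.99 in petiole, and its partner at 6.78, 6.36 and 4.45 in leaf and 16.4, 17.1 and 19.2 in petiole. Neither locus overlapped between tissues (-1.79, edgeR adjusted p = 0.0166, and 1.58, adjusted p = 7.61e-06). The sum over both strands was 18.9 to 21.7 CPM in leaf and 20.01 to 23.7 in petiole, so it changed far less than either strand. The call of MSTRG.19503 was lost without petiole 1, with adjusted p from 0.000418 to 0.0662 over its alternatives.

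MSTRG.25782 (A09, 15162157 to 15165814, plus strand) lies inside the locus of lipid phosphate phosphatase 1, which removes the phosphate of phosphatidic acid. It fell from 9.88 ± 1.27 to 3.35 ± 0.878 CPM, and the partner rose from 39.9 ± 1.10 to 50.8 ± 1.23 (SD, n = 3 each). The antisense locus was at 23.8% to 31.2% of the partner's FPKM in leaf and at 6.02% to 9.55% in petiole (ratio change -1.93 ± 0.223, limma adjusted p = 0.000341). MSTRG.24573 (A09, 2823602 to 2824427) fell by 2.07 while its merged partner MSTRG.24525 rose by 0.78 (ratio change -2.94, limma adjusted p = 0.000285).

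The most abundant antisense loci were a few short regions. With all libraries, only MSTRG.23618 of those below was called between tissues, with a small change. MSTRG.23230, abundant in petiole alone, is described above with the counts that changed strand. MSTRG.4288 (A02, 9781750 to 9782057) spans exactly the same bases as its partner MSTRG.4287. It was at 6377, 5872 and 7365 CPM in leaf and at 11577, 12997 and 0 in petiole, and the partner at 6377, 5872 and 7365 in leaf and 1964, 12997 and 13029 in petiole. The strands were equal in 4 libraries and unequal in petiole 1 and petiole 3, and neither locus was called (edgeR adjusted p = 0.929 and 0.613). The missing call of MSTRG.4288 depends on its 0 in petiole 3. Without that library it was called higher in petiole (log2 fold change 0.91, edgeR adjusted p = 0.00165). MSTRG.3915 (A02, 5784012 to 5784421) had 516 to 1970.5 CPM in leaf and 723 to 1704 in petiole, with the same count as its partner MSTRG.3916 in 4 libraries (log2 fold change 0.06, adjusted p = 0.946).

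MSTRG.23621 and MSTRG.23618 lie on A08 (20492994 to 20493323 and 20487046 to 20487638, minus strand) inside MSTRG.23602. The description of that partner names dynamin-related protein 1C, a membrane-remodelling enzyme of dividing cells, and also holds the search word for uncharacterized proteins. Which gene lies opposite each antisense locus was not determined. MSTRG.23621 was at 1610.1, 1373 and 1897 CPM in leaf and at 1426, 1565 and 1434 in petiole, where the groups overlap (edgeR adjusted p = 0.363). MSTRG.23618 was at 1175, 1259 and 1333 CPM in leaf and at 976, 1010.0 and 1090.4 in petiole (log2 fold change -0.29, adjusted p = 0.000912), a direction that turned to 0.45 with limma on log2(FPKM + 1). The partner rose from 105 ± 11.7 to 307 ± 24.8 CPM (SD, n = 3 each), so the ratio fell for both, by 1.68 and 1.84 (limma adjusted p = 1.61e-05 and 2.32e-05). MSTRG.23298, which contains its partner MSTRG.23299, was among the loci highest relative to the partner and had 9.80 to 11.7 CPM in leaf and 10.4 to 14.9 in petiole (adjusted p = 0.132).

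By the description of the partner, few antisense loci fell in a list of a known kind of gene. The counts per list are small and are given as a description, beside calls toward leaf for 31.1% and toward petiole for 31.5% of all tested loci. Transporters and channels were the partners of 7 loci, of which 6 were tested and 2 were higher in leaf (MSTRG.16152 and MSTRG.6399), and of 595 tested loci of that list 204 were. Disease resistance genes were the partners of 4, of which 3 were tested and 1, MSTRG.25431, was higher in petiole (2.98, edgeR adjusted p = 0.00886). The photosynthesis list, in which 82 of 98 tested loci were higher in leaf, faced 3, of which 2 were. Its search words miss the ATP synthase locus MSTRG.17038, so the list leaves out most of the A06 group. Kinases faced 2, and transcription factors and cytochrome P450 faced 1 each. Loci for ribosomal proteins, the cell wall, hormones, pentatricopeptide repeat proteins, F-box and ubiquitin proteins and heat shock proteins faced 0 antisense loci, in lists of 425, 546, 637, 490, 1333 and 57 named loci. Since the 106 main partners are 0.229% of the 46357 named loci, lists of these sizes would hold few or no partners at that share, and nothing is read from the zeros. The lists search the descriptions for set words, so the U-box locus opposite MSTRG.23230 is not in the list of F-box and ubiquitin proteins, and MSTRG.18241 counts under both transporters and transcription factors. The largest list was that of uncharacterized proteins, the partners of 17 antisense loci. Of these 15 were tested and 4 were higher in leaf, and of 5212 tested loci of that list 1759 were. For 45 of the 126 antisense loci the partner had no description.

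Genes with a known antisense RNA in *Arabidopsis*, among them *FLOWERING LOCUS C* and cold-response factors, were searched for by words of the description. Those words also match other members of these gene families. They matched 19 named loci, all tested, and none faced an antisense locus of the kind described here. Of these 19, 8 rose and 5 fell in petiole relative to leaf, and 4 faced any locus on the opposite strand. Among the 4 was MSTRG.6366, described as FLOWERING LOCUS C-like, which faces the merged locus MSTRG.6335. Also among them were MSTRG.17199 (SRO5, A06, 18321569 to 18323438) and MSTRG.17200 (delta-1-pyrroline-5-carboxylate dehydrogenase, 18323435 to 18326589), which face each other. The spans of MSTRG.17199 and MSTRG.17200 share only a few bases at their 3′ ends. Both of these carry a gene name, so the rule used here cannot count either. Since main partners are 0.229% of named loci, nothing is read from the lack of antisense loci at these 19.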

How the data were processed

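RNA was measured in 3 leaf and 3 petiole libraries. The deposited table gave, per the file headers, FPKM and estimated counts (expected counts) for each locus and library. The counts were whole numbers, so rounding changed nothing, and low values lay at multiples of about 3.78 units, so that 12 units stand for 3 fragments, the floor used. Floors cover counting error only. Values after ± are standard errors, or standard deviations over 3 libraries where marked SD, and hold the spread between libraries. For edgeR the standard error was derived as the absolute log2 fold change divided by the square root of the F statistic. For ratios it was that of the limma fit. What aligned and counted the reads, and on which plant build, is not given in the sources used here. Per the submitters' processing notes, Bowtie 0.12.2 was listed with mm8, a mouse build, and no role for either. Coordinates are those of the deposited table. No sequence is shown.

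Counts were tested with edgeR 4.0.16 (R 4.3.3): filterByExpr, TMM scaling (0.885 to 0.925 in leaf, 1.09 to 1.14 in petiole), tissue alone, robust quasi-likelihood, two-sided, Benjamini-Hochberg adjustment over 31473 loci. Loci without a gene name stayed in the totals, with 5.19% to 5.43% of units in leaf and 5.94% to 6.62% in petiole. Log2 ratios within pairs (0.5 units added) were tested with limma 3.58.1 over 1647 pairs. DESeq2 1.42.0 and limma on log2(FPKM + 1) and log2(FPKM + 0.1) were alternatives. Scripts were tested on simulated counts.

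Loci named in the text were the 8 largest changes in each direction among called loci with a mean of at least 1 FPKM and no overlap between tissues, the 4 most abundant in each tissue, up to 6 opposite pairs, and up to 4 loci highest relative to the partner. The strand-switching pairs, MSTRG.17060, MSTRG.1021 and MSTRG.25431 were chosen after their values were seen. The loci and the lists were chosen with earlier results of these data known.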

Additional observations from a re-analysis of the deposited data

How the results depend on the processing

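Alternatives gave 32 to 66 called antisense loci, against 51. The 66 were of 116 tested with limma on log2(FPKM + 0.1), where 74.9% of all loci were called, against 62.6% in the main test. Without loci that also overlap a named locus on their own strand, 46 of 104 tested were called, against 62.6% of all loci. The ratio test then called 32 of 94 pairs, against 52% of all pairs. With partners of a single gene name the ratio test called 21 of 70 pairs and 17 pairs changed in the same direction, and with partners that hold an annotated transcript 32 of 75 loci were called. Fewer loci were tested in both. That last choice, and those for equal counts, zeros, shared or long partners and the A06 group, were made after seeing the data.

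Leaving out 1 library gave 47 to 54 called loci, 32 to 40 called ratios and 21 to 24 pairs changed in the same direction. In these runs 57.6% to 58.4% of all loci and 45.1% to 48.8% of all pairs were called. Leaf and petiole libraries of the same number showed no sign of pairing (correlations of deviations of 0.030, -0.0036 and -0.0047). With so few libraries this does not decide whether they are paired. A replicate block gave 49 called loci, 37 called ratios and 23 pairs changed in the same direction. Ratio calls toward petiole went from 8 to 13 without petiole 1.

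Signs turned for loci near 0 or with unequal strands. The sign also turned for MSTRG.23618, called toward leaf by edgeR (adjusted p = 0.000912) and toward petiole by limma on log2(FPKM + 1) (adjusted p = 0.000109). FPKM relative to scaled counts was shifted toward petiole by a median log2 of 0.74 over all loci compared. The cause of the turned signs was not tested. Values are log2, petiole over leaf. MSTRG.17763 (-0.088 to 0.12 when 1 library was left out) was at 0.0019 with DESeq2 and 0.0017 with RLE factors, at 0.64 and 0.71 with limma on FPKM (1 and 0.1 added), and at 0.036 without leaf 3. With limma on FPKM, MSTRG.23618 was at 0.45 and 0.45, MSTRG.23621 at 0.61 and 0.61, MSTRG.3916 at 0.55 and 0.55, and MSTRG.4288 at -3.43 and -4.53. MSTRG.4288 was between -0.17 and 0.91 when 1 library was left out, at -0.0080 without petiole 1, -0.17 without petiole 2 and -0.58 with the block, and its ratio was between -10.87 and 1.28. MSTRG.3916 lay between -0.33 and 0.12, with 0.088 without leaf 3. MSTRG.3915 lay between -0.32 and 0.51, with -0.084 and -0.15 without petiole 2 and petiole 3, and its ratio was -0.059 without leaf 1. MSTRG.205 lay between -0.24 and 0.25, with -0.013 without leaf 3. The ratio of MSTRG.22458 lay between -2.49 and 1.66, and that of MSTRG.17066 was 0.11 without leaf 3. MSTRG.4288 and MSTRG.4287 were called without petiole 3 and petiole 1, and MSTRG.23230 without petiole 2, with DESeq2, with limma on FPKM, with the filter at 1 FPKM and with the block. The call of MSTRG.17765 was lost with the block. The ratio call of MSTRG.16152 was lost without any 1 leaf library. Depth limits the loci with few fragments, such as MSTRG.16152 and MSTRG.22458.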
